A study of Saccharomyces cerevisiae with 12 samples.

Results

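The hexose carriers HXT1 to HXT7 and the glucose sensors SNF3 and RGT2 of budding yeast were followed across 4 groups of cultures. These 9 genes were picked by symbol from the 7109 gene identifiers of the count table. The table itself gave a symbol for 2 of them (HXT1 and HXT4), and the other 7 were matched by systematic name to the RefSeq annotation of assembly R64. All 9 were among the 6463 genes that passed the filter on low counts.

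Poly(A) RNA was sequenced from cells of the BY4741 background, a haploid laboratory strain of mating type a with auxotrophic markers. The wild type and a strain deleted for hel2 were each measured untreated and after methyl methanesulfonate (MMS), with 3 libraries labelled as biological replicates in each of the 4 groups. HEL2 encodes a ubiquitin ligase that marks collided ribosomes, and MMS methylates DNA and RNA. Cultures were in YPD, a rich glucose medium, and had reached an optical density near 0.5; treated cells then spent 90 min with MMS at 30 °C. The dose of MMS, the glucose left at harvest, the time untreated cultures were held and the number of deletion clones do not appear in the labels. P-values measure the spread between these libraries, which the labels call biological replicates without saying what was kept separate.

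Yeast takes up glucose by facilitated diffusion through the Hxt carriers, which differ in affinity and in the glucose level at which their genes are transcribed. HXT1 and HXT3 encode low-affinity carriers, which serve cells in plentiful glucose, while HXT2, HXT6 and HXT7 encode high-affinity carriers that are used when glucose is scarce. Snf3 and Rgt2 resemble carriers but act as receptors. With glucose bound they lead, through the casein kinases Yck1 and Yck2 and the ubiquitin ligase SCF-Grr1, to loss of Mth1 and Std1, so that the repressor Rgt1 leaves the HXT promoters. A second route, Snf1 and the repressor Mig1, keeps genes for scarce glucose silent while glucose is plentiful.

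Libraries held 36472686 to 53638964 counts. For HEL2 the wild type held 928 to 2431 counts per library and the deletion strain 19 to 39. The strains also differed at LEU2, a leucine synthesis gene and marker of this background, with 2 to 28 counts in the wild type and 19374 to 28105 in the deletion strain, so effects of the hel2 deletion and of LEU2 cannot be told apart. URA3, another such marker, held 4 to 378 counts in the treated wild type libraries and at most 12 in those of the other groups. The high count was that of WT_MMS replicate 2 alone. The cause was not tested. Marker genes of a cells summed to 1908 to 3073 CPM (counts scaled to a common library size after TMM adjustment) over the 12 libraries, and those of alpha cells to 48.0 to 123 CPM, of which SAG1 held most. WT_MMS replicate 1 differed from its 2 fellow replicates, with a TMM factor of 0.890 against 1.11 and 1.11. It had the highest CPM of its group for all 9 genes, and WT_MMS replicate 2 had the lowest for all 9. This order depends on the TMM factors. SNF3, for one, held 720, 860 and 1101 counts in replicates 1 to 3, of 36472686, 40641054 and 47742712 in all. Each called result of the 9 genes was therefore also computed without WT_MMS replicate 1, and all 24 kept their direction and their call.

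Changes are log2 fold changes with a standard error (SE) from edgeR's quasi-likelihood test over all genes, and passing means an adjusted p (Benjamini-Hochberg over all tested genes) under 0.05. With MMS, HXT5, HXT6 and HXT7 rose and HXT2, HXT3 and HXT4 fell in both strains, while HXT1, RGT2 and SNF3 did not pass. That is 6 of 9 genes in each strain, beside 69.9% of all tested genes in the wild type and 75.4% in the deletion strain, so the number of calls is near the background. By direction, 35.6% of all tested genes rose and 34.2% fell in the wild type, and 39.2% rose and 36.2% fell in the deletion strain. The sizes were not alike in the strains. HXT7 rose more in the wild type, by 4.21 against 1.91, and HXT5 more in the deletion strain, by 4.25 against 1.78. The difference between the MMS effects passed for 5 of 9 genes (HXT2, HXT4, HXT5, HXT6 and HXT7), where 40% of all tested genes passed (18.6% higher and 21.5% lower). Without MMS, HXT4 alone passed between the strains, where 8.57% of all tested genes passed (5.25% higher and 3.33% lower). With MMS, HXT5 was higher and HXT2, HXT3, HXT4, HXT6 and HXT7 were lower in the deletion strain, 6 of 9 genes beside 61.9% of all tested genes (32% higher and 29.8% lower). Libraries of the 2 groups compared did not overlap for 6, 6, 3 and 7 of the 9 genes with MMS in the wild type, with MMS in the deletion strain, and between the strains without and with MMS. The shares of all tested genes were 71.4%, 81.4%, 31.9% and 68.3%. These comparisons share libraries with each other, so their values are not independent.

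**Figure D1:**
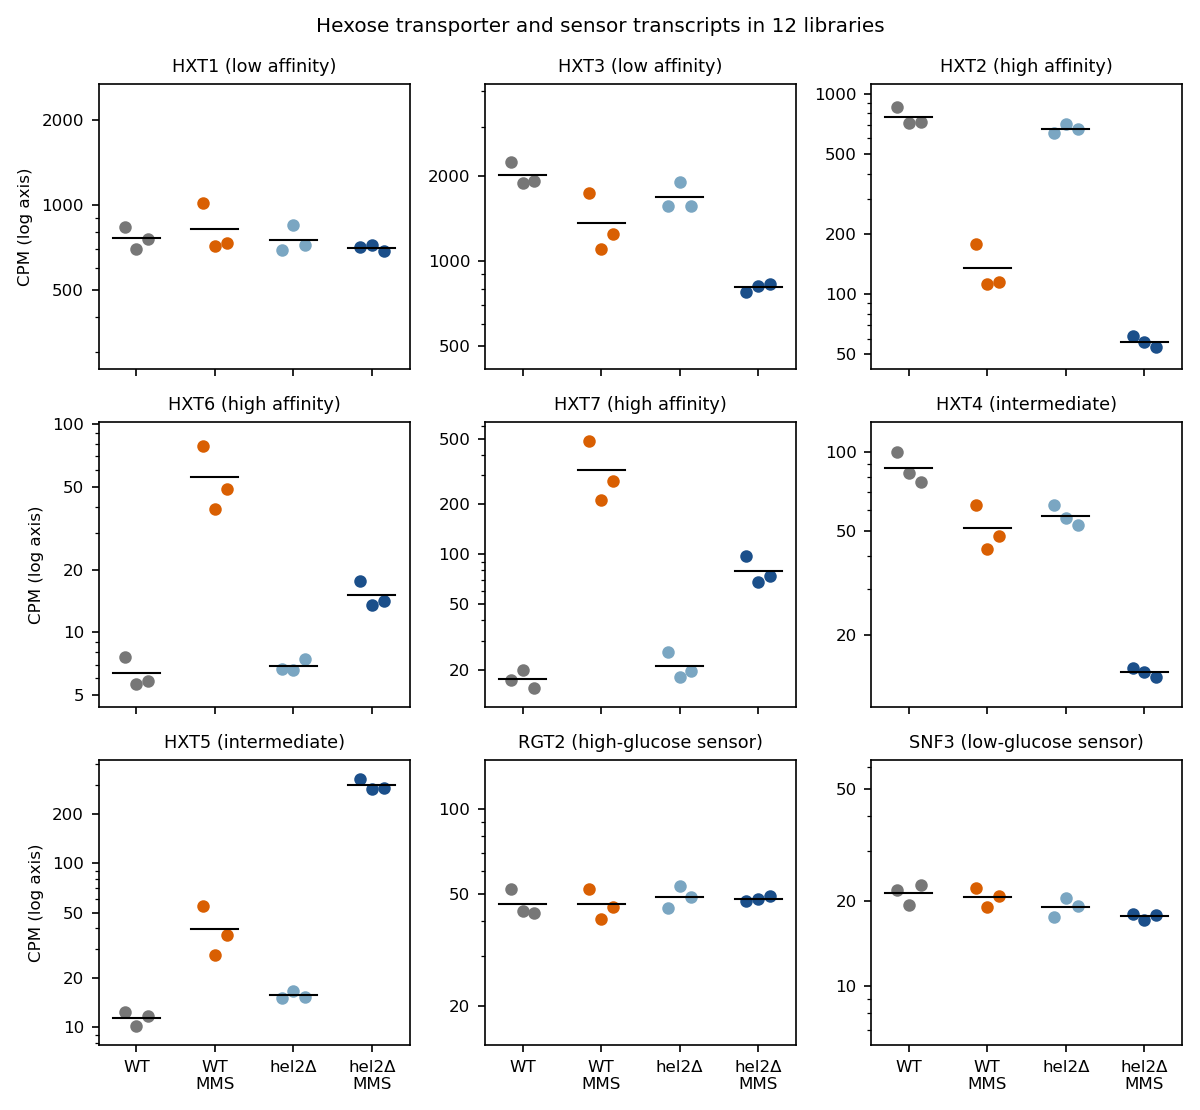
CPM of each gene (log axis, ticks differ between panels) in the 4 groups, with 1 point per library in replicate order and a bar at the group mean. HXT6 and HXT7 are highest in MMS-treated wild type, HXT5 is highest in MMS-treated deletion cells at 280.5 to 326 CPM, and RGT2 and SNF3 stay within narrow bands.

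**Figure D2:**
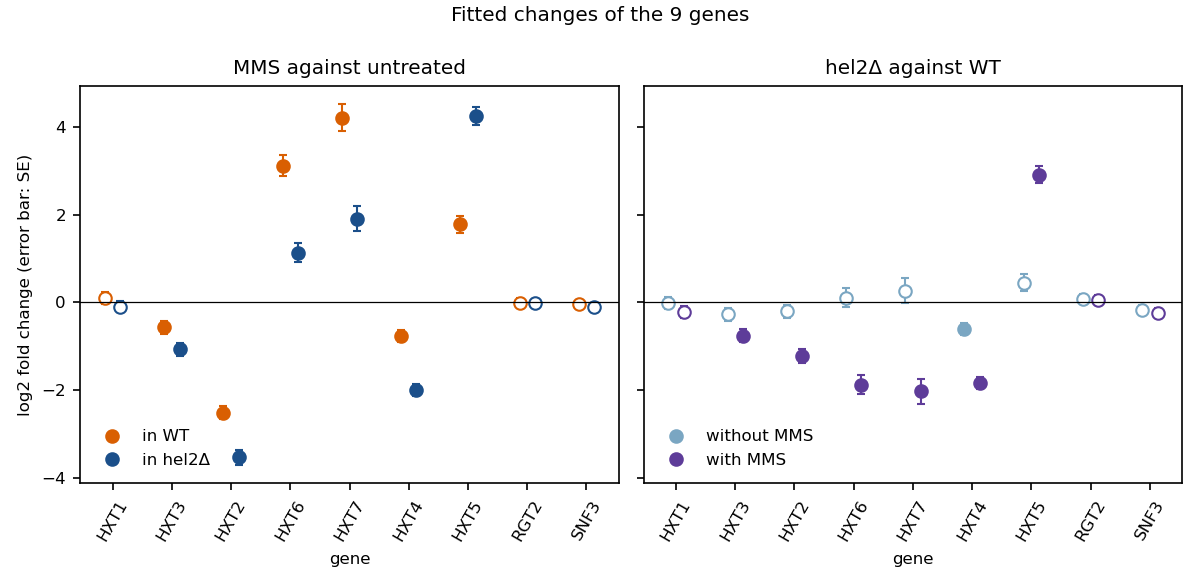
Log2 fold changes of the 9 genes with SE, for MMS against untreated in each strain (left) and for deletion minus wild type at each treatment (right); filled points passed at an adjusted p under 0.05 and open points did not. HXT7 and HXT5 exchange places between the strains in the left panel, at 4.21 and 1.78 in the wild type and 1.91 and 4.25 in the deletion strain.

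Among the low-affinity carriers, HXT3, which is induced by glucose over a wide range, was the most abundant carrier transcript in every group. It had 2242, 1896 and 1931 CPM in the untreated wild type and 1742.5, 1108 and 1253 CPM with MMS. The deletion strain had 1567, 1917 and 1575 CPM untreated and 781, 816 and 827 CPM with MMS. Treated and untreated libraries did not overlap in either strain. HXT3 fell by 0.56 ± 0.15 with MMS in the wild type (SE, n = 3 per group, adjusted p = 0.00427) and by 1.06 ± 0.15 in the deletion strain (adjusted p = 2.48e-05). With MMS it was lower in the deletion strain by a log2 difference of -0.76 ± 0.15 (adjusted p = 0.000689). The difference between the MMS effects was -0.50 ± 0.21 and did not pass (adjusted p = 0.0773), but passed in DESeq2 (adjusted p = 0.0419) and without WT_MMS replicate 2 (adjusted p = 0.0205).

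HXT1, the carrier gene that needs high glucose for full induction, had 835, 698 and 754 CPM in the untreated wild type and 1013, 712 and 732 CPM with MMS. Deletion cells gave 692, 846 and 723 CPM untreated and 709, 720 and 688 CPM with MMS. All 4 groups overlapped. The MMS effect on HXT1 was 0.10 in the wild type, with a 95% interval of -0.18 to 0.39, and -0.09 in the deletion strain, with an interval of -0.38 to 0.19. Neither passed (adjusted p = 0.497 and adjusted p = 0.525), and without WT_MMS replicate 1 the value in the wild type was -0.08. The scaling matters for a gene that moves this little. With library-size scaling the median of all tested genes moved from 0.02 to 0.33 for MMS in the wild type and from 0.06 to 0.61 for MMS in the deletion strain, and HXT1 then stood at 0.39 (adjusted p = 0.00111) and 0.47 (adjusted p = 0.000252). HXT1 thus lay above that median in the wild type and below it in the deletion strain.

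As HXT3 fell and HXT1 did not, the balance between the low-affinity transcripts moved. Per kilobase of coding length, HXT3 stood at 2.57 to 2.73 times HXT1 in the untreated wild type libraries and at 1.56 to 1.73 times with MMS. In the deletion strain it stood at 2.19 to 2.28 times untreated and 1.11 to 1.21 times with MMS. The 4 ranges did not overlap. No test was run on these ratios, since the genes were chosen together.

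Among the high-affinity carriers, HXT2, which is induced by low glucose, fell the furthest. It had 856, 719 and 723 CPM in the untreated wild type and 178, 112 and 115 CPM with MMS. Cells without hel2 had 634, 707 and 665 CPM untreated and 61.6, 57.6 and 54.7 CPM with MMS. All treated libraries lay below all untreated ones, and treated deletion libraries lay below treated wild type libraries. HXT2 fell 5.68-fold with MMS in the wild type, a log2 change of -2.505 ± 0.16 (adjusted p = 1.3e-08). It fell 11.5-fold in the deletion strain, a log2 change of -3.53 ± 0.16 (adjusted p = 4.01e-10), and ranked 48 from the lowest of 6463 genes there. The difference between the MMS effects was -1.02 ± 0.21 (adjusted p = 0.00226), and with MMS the deletion strain was lower by a log2 difference of -1.22 ± 0.15 (adjusted p = 1.74e-05). Without MMS the strains differed by -0.20 ± 0.15 (adjusted p = 0.475), with an interval of -0.52 to 0.13.

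HXT6 and HXT7, which lie next to each other in R64 and encode nearly identical high-affinity carriers, moved the other way. HXT7 had 17.3, 19.8 and 15.5 CPM in the untreated wild type and 483, 211 and 277 CPM with MMS. Deletion cells had 25.7, 18.0 and 19.7 CPM untreated and 96.9, 67.7 and 74.3 CPM with MMS. The untreated strains overlapped, the treated ones did not, and every treated library lay above every untreated one. HXT7 rose 18.5-fold with MMS in the wild type, by 4.21 ± 0.31 (adjusted p = 3.36e-07), and ranked 32 from the highest of 6463 genes. In the deletion strain it rose 3.76-fold, by 1.91 ± 0.28 (adjusted p = 8.76e-05). The difference between the MMS effects was -2.30 ± 0.39 (adjusted p = 0.00111), and -1.88 without WT_MMS replicate 1. With MMS, HXT7 was 4.07-fold lower in the deletion strain, a log2 difference of -2.02 ± 0.28 (adjusted p = 9.68e-05), and without MMS the difference was 0.27 ± 0.28 (adjusted p = 0.621), with an interval of -0.35 to 0.89.

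HXT6 stood below HXT7 in every library. It had 7.58, 5.67 and 5.84 CPM in the untreated wild type and 78.3, 39.2 and 48.5 CPM with MMS, against 6.67, 6.57 and 7.402 CPM in untreated and 17.7, 13.4 and 14.2 CPM in treated deletion cells. It rose by 3.12 ± 0.23 in the wild type (adjusted p = 6.55e-08) and by 1.13 ± 0.22 in the deletion strain (adjusted p = 0.000396), a difference of -1.98 ± 0.31 (adjusted p = 0.000355). How reads that align to both genes were counted is not given in the sources used here, so the split between HXT6 and HXT7 is uncertain. HXT7 had 2.28 to 3.85 times the counts of HXT6 in untreated libraries and 5.03 to 6.16 times with MMS. The sum of both rows does not depend on how shared reads were divided between them, though it does depend on any that were dropped. Summed, the pair rose by 3.99 ± 0.28 in the wild type (adjusted p = 1.98e-07) and by 1.76 ± 0.26 in the deletion strain (adjusted p = 8.04e-05), a difference of -2.23 ± 0.36 (adjusted p = 0.000777).

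The high-affinity transcripts thus exchanged places under MMS. Per kilobase of coding length, HXT2 exceeded the sum of HXT6 and HXT7 by 20.6 to 36.2 times in the 6 untreated libraries. In treated wild type libraries the sum exceeded HXT2 by 2.12 to 3.00 times, and in treated deletion libraries by 1.34 to 1.77 times.

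HXT4 and HXT5 were taken here as carriers of intermediate affinity, although the annotation in the deposited table calls Hxt4 a high-affinity carrier. HXT4, induced by low glucose, had 99.8, 83.0 and 76.8 CPM in the untreated wild type and 62.6, 42.6 and 47.5 CPM with MMS. The deletion strain had 62.5, 55.8 and 52.5 CPM untreated and 14.9, 14.4 and 13.7 CPM with MMS. Both treatments of the deletion strain lay below the matching wild type libraries without overlap. HXT4 fell by 0.77 ± 0.13 with MMS in the wild type (adjusted p = 0.000199) and by 1.99 ± 0.14 in the deletion strain (adjusted p = 2.44e-08), a difference of -1.22 ± 0.19 (adjusted p = 0.00035). With MMS the deletion strain was 3.54-fold lower, a log2 difference of -1.82 ± 0.14 (adjusted p = 2.51e-07). Without MMS it was 1.52-fold lower, a log2 difference of -0.60 ± 0.13 (adjusted p = 0.0147). That last call was lost without WT replicate 1 (adjusted p = 0.0703), hel2 replicate 2 (adjusted p = 0.0567) or hel2 replicate 3 (adjusted p = 0.0601).

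HXT5 encodes a carrier of moderate affinity that is known to be expressed when growth slows. It had 12.5, 10.1 and 11.7 CPM in the untreated wild type and 54.8, 27.4 and 36.6 CPM with MMS. Cells without hel2 had 15.1, 16.5 and 15.3 CPM untreated and 326, 280.5 and 287 CPM with MMS. None of the 4 groups overlapped, and the treated deletion libraries stood far above all others. With MMS HXT5 rose 3.45-fold in the wild type, by 1.78 ± 0.20 (adjusted p = 3.09e-06), and 19.0-fold in the deletion strain, by 4.25 ± 0.21 (adjusted p = 8.27e-10). The difference between the MMS effects was 2.47 ± 0.27 (adjusted p = 2.54e-05). With MMS HXT5 was 7.53-fold higher in the deletion strain, a log2 difference of 2.91 ± 0.20 (adjusted p = 1.06e-07), and ranked 13 from the highest of 6463 genes. Without MMS the difference was 0.45 ± 0.19 and did not pass (adjusted p = 0.19). It passed without WT_MMS replicate 1 (adjusted p = 0.0126), when only the libraries compared were fitted (adjusted p = 0.0244), and under library-size scaling (adjusted p = 0.0422), where the median of all tested genes was 0.11.

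HXT5 and HXT7 therefore stood in opposite order in the treated strains. Per kilobase of coding length, HXT7 was 7.87 to 9.15 times HXT5 in treated wild type libraries, and HXT5 was 3.24 to 3.99 times HXT7 in treated deletion libraries. In the untreated libraries HXT7 was 1.13 to 2.03 times HXT5.

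The sensor genes moved little. RGT2, for the sensor of high glucose, had 52.1, 43.5 and 42.6 CPM in the untreated wild type and 52.1, 40.8 and 44.8 CPM with MMS. Deletion cells had 44.4, 53.1 and 48.7 CPM untreated and 47.1, 47.7 and 49.3 CPM with MMS. The MMS effect was -0.01 in the wild type, with an interval of -0.24 to 0.22, and -0.02 in the deletion strain, with an interval of -0.25 to 0.20. SNF3, for the sensor of low glucose, had 21.8, 19.4 and 22.8 CPM in the untreated wild type and 22.2, 19.1 and 20.9 CPM with MMS. The deletion strain had 17.6, 20.6 and 19.2 CPM untreated and 18.1, 17.2 and 17.8 CPM with MMS. Its MMS effect was -0.04 in the wild type, with an interval of -0.25 to 0.17, and -0.11 in the deletion strain, with an interval of -0.32 to 0.10.

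No comparison of RGT2 or SNF3 passed in the fit with TMM. The nearest was SNF3 with MMS, which was lower in the deletion strain by -0.23 ± 0.10 (adjusted p = 0.056) with no overlap of libraries. It passed with RLE scaling (adjusted p = 0.023), DESeq2 (adjusted p = 0.00876) and limma-voom (adjusted p = 0.0456), and without WT_MMS replicate 2 (adjusted p = 0.0367), while under library-size scaling it stood at 0.12. Under library-size scaling RGT2 stood at 0.30 and 0.54 and SNF3 at 0.26 and 0.45 for MMS in the wild type and in the deletion strain, all below the medians of 0.33 and 0.61 for all tested genes. RGT2 then passed in both strains (adjusted p = 0.0125 and adjusted p = 0.000164) and SNF3 in the deletion strain (adjusted p = 0.00259) but not in the wild type (adjusted p = 0.0508). RGT2 also passed between the strains with MMS, at 0.42 (adjusted p = 0.00169) beside a median of 0.37. Per kilobase of coding length RGT2 was 2.16 to 3.22 times SNF3 over the 12 libraries.

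Taken per kilobase, HXT3 led the untreated wild type at 1187 ± 112 CPM per kilobase (mean ± SD, n = 3). HXT2 at 471 ± 47.9 and HXT1 at 445 ± 40.1 followed with overlapping libraries. HXT4 at 50.0 ± 6.89, RGT2 at 20.1 ± 2.29, HXT7 at 10.2 ± 1.28, SNF3 at 8.04 ± 0.65, HXT5 at 6.44 ± 0.67 and HXT6 at 3.72 ± 0.62 came after, each above the next without overlap. The untreated deletion strain differed from this order in that HXT1 stood above HXT2, with overlap, and HXT5 at 8.79 ± 0.45 above SNF3 at 7.21 ± 0.56.

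With MMS the order in the wild type was HXT3 at 803 ± 195 CPM per kilobase, HXT1 at 478 ± 98.2, HXT7 at 189 ± 82.6 and HXT2 at 83.0 ± 22.7, each without overlap. HXT6, HXT4, HXT5 and RGT2 followed between 32.3 and 20.0, each overlapping its neighbour, and SNF3 was lowest at 7.81 ± 0.57. In treated deletion cells HXT3 at 474 ± 14.3 stood just above HXT1 at 412 ± 9.33. HXT5 came next at 167 ± 13.8, then HXT7 at 46.5 ± 8.95 and HXT2 at 35.7 ± 2.13. RGT2, HXT6, HXT4 and SNF3 followed between 21.0 and 6.66, with overlap of HXT6 and HXT4. RGT2 thus outranked HXT4 in treated deletion cells, where in the untreated wild type HXT4 had been 2.49 times RGT2.

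Set against each other as classes, the carriers showed a steady low-affinity share of their counts and a changing remainder, although the level of HXT3 fell with MMS. Of all counts on HXT1 to HXT7, the low-affinity HXT1 and HXT3 held 75.8 ± 0.42% in the untreated wild type (mean ± SD, n = 3) and 78.7 ± 2.26% with MMS. Deletion cells held 75.9 ± 1.32% untreated and 76.5 ± 2.01% with MMS. The high-affinity HXT2, HXT6 and HXT7 held 21.2 to 21.7% in untreated wild type libraries, 16.1 to 20.5% in treated ones, 20.5 to 22.6% in untreated deletion libraries and 7.04 to 8.78% in treated ones. HXT4 and HXT5 held 2.03 to 3.35% in the first 3 of these groups and 14.97 to 17.0% in treated deletion cells.

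Within the high-affinity part, HXT2 held 20.5 to 21.0% of carrier counts in the untreated wild type and 4.58 to 4.99% with MMS, while HXT6 and HXT7 went from 0.605 to 0.743% up to 11.1 to 15.5%. In treated deletion cells HXT2 held 2.79 to 3.07%, HXT6 and HXT7 4.12 to 5.71%, and HXT5 14.2 to 16.2%. HXT1 and HXT3 also shifted between themselves, with HXT1 at 20.3 to 21.4% in the untreated wild type and 35.1 to 36.5% in treated deletion cells. The log2 ratio of high- to low-affinity levels per kilobase was -1.75 ± 0.03 and -2.12 ± 0.21 in the wild type without and with MMS. In the deletion strain it was -1.74 ± 0.10 and -3.29 ± 0.21.

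**Figure D3:**
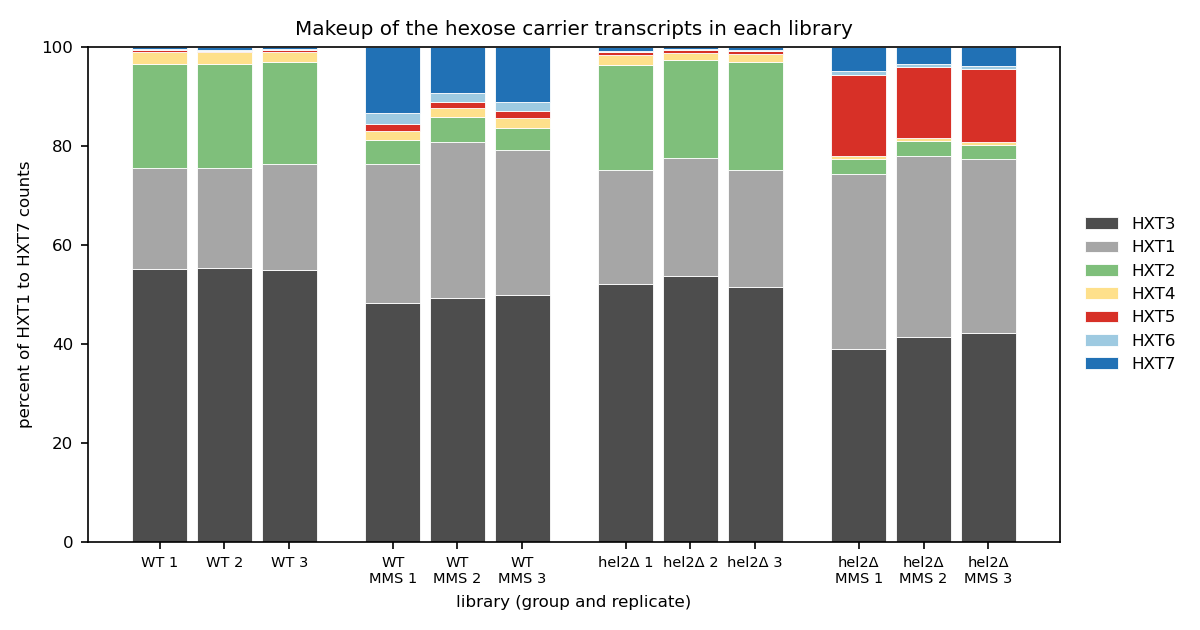
Each bar is 1 library and shows how its counts on HXT1 to HXT7 divide among the 7 genes, in percent. HXT3 and HXT1 together hold 74.2 to 80.8% in every library, HXT2 makes up most of the rest without MMS, HXT7 takes its place in treated wild type, and HXT5 takes it in treated deletion cells.

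The carriers as a whole took 0.283 to 0.332% of all counts in the untreated wild type and 0.249 to 0.322% with MMS. Deletion libraries gave 0.260 to 0.310% untreated and 0.259 to 0.260% with MMS. On the TMM scale their sum was 3673 ± 346 CPM in the untreated wild type, 2792 ± 722 with MMS, 3209 ± 311 in the untreated deletion strain and 1979 ± 24.6 with MMS. The fall in treated cells was larger on the TMM scale than in percent of the library. In bulk RNA, fewer cells that express a gene and less RNA per cell cannot be told apart.

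The pathway between the sensors and the HXT promoters was described with 10 genes. With MMS in the wild type 1 of them rose and 7 fell, beside 35.6% and 34.2% of all tested genes, with a median of -0.38 beside 0.02. In the deletion strain 2 rose and 5 fell, beside 39.2% and 36.2%, with a median of -0.19 beside 0.06. Library-size scaling took away the falls of CYC8 (-0.19, adjusted p = 0.3) and YCK2 (-0.08, adjusted p = 0.618) in the wild type and of STD1 in the deletion strain (-0.45, adjusted p = 0.0927). Of this list only STD1, CDC53, TUP1, CYC8, MTH1 and YCK2 were recomputed, so whether the other falls depend on the scaling was not tested. STD1, whose product holds Rgt1 on the promoters, fell by 1.43 ± 0.17 in the wild type (adjusted p = 4.96e-06), from 22.1 ± 1.33 to 8.16 ± 1.94 CPM. CDC53, the cullin of SCF ligases, rose by 0.98 ± 0.10 and 1.32 ± 0.10 in the wild type and the deletion strain. TUP1 and CYC8 encode the corepressor that Rgt1 and Mig1 recruit. TUP1 fell by 0.56 ± 0.10 in the wild type (adjusted p = 0.000157) and by 1.73 ± 0.10 in the deletion strain (adjusted p = 2.62e-09), a difference of -1.17 ± 0.13 (adjusted p = 3.38e-05). CYC8 fell by 1.02 ± 0.13 in the deletion strain (adjusted p = 7.34e-06).

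Between the strains without MMS, 1 of these 10 genes passed, beside 8.57% of all tested genes, so the count is near the background. It was MTH1, the other partner of Rgt1, at 8.47 ± 1.09 CPM in the wild type and 13.6 ± 0.87 in the deletion strain. The log2 difference was 0.68 ± 0.12 (adjusted p = 0.00349) without MMS and 1.05 ± 0.12 (adjusted p = 7.35e-06) with MMS. With MMS 5 of the 10 genes were higher and 1, TUP1, was lower in the deletion strain, beside 32% and 29.8% of all tested genes, with a median of 0.25 beside 0.03. YCK2, a casein kinase gene, fell by 0.40 in the wild type and stood at 0.11 in the deletion strain (adjusted p = 0.289), a difference of 0.51 ± 0.13 (adjusted p = 0.00818).

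The remaining members of the HXT family, HXT8 to HXT17 and the galactose carrier gene GAL2, lay below HXT1, HXT2 and HXT3 in every group. Their group means were at most 15.9 CPM apart from GAL2. They were not all below the other carriers. In the untreated wild type GAL2 had 40.0 ± 0.96 CPM and HXT10 had 10.1 ± 3.77 CPM, beside 6.37 ± 1.06 CPM for HXT6. With MMS 5 of 11 rose and 1 fell in each strain, beside 35.6% and 34.2% of all tested genes in the wild type and 39.2% and 36.2% in the deletion strain. In the wild type HXT9 rose by 1.69 ± 0.23, HXT11 by 1.49 ± 0.13 and HXT12 by 1.35 ± 0.16. These 3 are close relatives of each other, so reads may be shared among them and their separate values are uncertain. GAL2 fell in both strains, from 40.0 ± 0.96 to 25.8 ± 0.82 CPM in the wild type and from 36.8 ± 0.81 to 18.8 ± 0.55 CPM in the deletion strain. With MMS 5 were lower in the deletion strain, beside 29.8% of all tested genes, the largest of these 5 differences being HXT9 at -0.88 ± 0.22 (adjusted p = 0.00405). Library-size scaling took away the calls of HXT9 (-0.53, adjusted p = 0.0586), HXT12 (-0.18, adjusted p = 0.343) and GAL2 (-0.11, adjusted p = 0.36), and that of HXT12 was also lost without hel2_MMS replicate 1 (adjusted p = 0.0538). Of this list only HXT9, HXT11, HXT12 and GAL2 were recomputed.

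Hexose kinases phosphorylate glucose once it has entered the cell. The hexokinase genes HXK1 and HXK2 and the glucokinase gene GLK1 were listed with 10 genes of the Snf1 and Mig1 route. HXK2, for the main hexokinase in glucose, had 2699, 2649 and 2403 CPM in the untreated wild type and 1016, 979.9 and 821 CPM with MMS. Cells without hel2 had 2310.2, 2414 and 2652 CPM untreated and 201, 217 and 207 CPM with MMS. It fell by 1.46 in the wild type and by 3.56 ± 0.11 in the deletion strain (adjusted p = 1.14e-11), a difference of -2.10 ± 0.14 (adjusted p = 6.13e-07). HXT2 and HXT4 also fell further in the deletion strain than in the wild type.

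HXK1, for the hexokinase expressed when glucose is scarce, had 23.8, 28.5 and 26.9 CPM in the untreated wild type and 940.1, 746 and 788 CPM with MMS. Deletion cells had 95.7, 82.7 and 102 CPM untreated and 379, 376 and 349 CPM with MMS. It rose by 4.97 ± 0.13 in the wild type (adjusted p = 6.61e-12) and by 1.98 ± 0.11 in the deletion strain (adjusted p = 2.24e-09), a difference of -2.99 ± 0.15 (adjusted p = 9.48e-08). Its level was already higher in untreated deletion cells, by 1.83 ± 0.11 (adjusted p = 1.07e-06), where HXT6 and HXT7 did not pass. GLK1 rose by 5.41 ± 0.24 in the wild type and by 3.47 ± 0.22 in the deletion strain, and was higher in the untreated deletion strain by 1.66 ± 0.20 (adjusted p = 0.000273). Over the 13 genes, 4 rose and 4 fell in the wild type and 7 rose and 2 fell in the deletion strain, with medians of -0.06 and 0.29 beside 0.02 and 0.06 for all tested genes. Of all tested genes 35.6% rose and 34.2% fell in the wild type and 39.2% rose and 36.2% fell in the deletion strain, so the wild type counts are near the background. Library-size scaling took away the fall of MIG2, for a second repressor, in both strains (adjusted p = 0.386 and adjusted p = 0.35). Of this list only HXK1, HXK2, GLK1, MIG1, MIG2 and SIP2 were recomputed. SIP2, for a subunit of the Snf1 complex, rose by 1.56 ± 0.08 in the wild type (adjusted p = 1.54e-09). MIG1, for the repressor itself, was higher in the deletion strain with MMS by 1.02 ± 0.13 (adjusted p = 2.96e-05).

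Genes known to be silenced by glucose were examined as a reading of glucose repression. Of 12, 10 rose with MMS in the wild type and the other 2 did not pass, beside 35.6% of all tested genes that rose, with a median of 0.89 beside 0.02. In the deletion strain 8 rose and 2 fell, beside 39.2% and 36.2%, with a median of 0.58 beside 0.06. The falls were those of ADH2 and SUC2, and that of SUC2 was lost under library-size scaling (-0.19, adjusted p = 0.0575). PCK1, for an enzyme of glucose synthesis, rose from 4.4005 ± 0.34 to 14.2 ± 1.38 CPM in the wild type and from 5.04 ± 0.32 to 21.5 ± 1.28 CPM in the deletion strain. CAT8, an activator of such genes, rose by 1.31 ± 0.11 in both strains. ADH2, for the alcohol dehydrogenase that consumes ethanol, fell by 1.19 ± 0.11 in the deletion strain (adjusted p = 2.78e-07) and was lower there with MMS by -1.505 ± 0.11 (adjusted p = 1.4e-07). SUC2, for invertase, was lower with MMS in the deletion strain by -1.01 ± 0.13 (adjusted p = 1.98e-05). PCK1 was higher there with MMS by 0.60 ± 0.11 (adjusted p = 0.000322). Between the treated strains 2 of the 12 genes were higher and 3 lower in the deletion strain, beside 32% and 29.8% of all tested genes. Their median was -0.06 beside 0.03.

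Arrestins and the ligase Rsp5 direct carriers from the plasma membrane to the vacuole. Of 9 genes for these proteins, 4 rose and 2 fell in each strain with MMS, with medians of 0.36 and 0.28 beside 0.02 and 0.06. Of all tested genes 35.6% rose and 34.2% fell in the wild type and 39.2% rose and 36.2% fell in the deletion strain. The fall of ART5, an arrestin-related gene, turned under library-size scaling to 0.0147 in the wild type (adjusted p = 0.895) and 0.0815 in the deletion strain (adjusted p = 0.423), and in the wild type it was lost without WT_MMS replicate 3 (adjusted p = 0.0538). The other fall in each strain was not recomputed. ROG3 rose by 1.502 ± 0.11 and 1.18 ± 0.10 and CSR2 by 1.21 ± 0.10 and 1.19 ± 0.10 in the wild type and the deletion strain. Both encode arrestin-related proteins. ROD1, of the same family, was higher with MMS in the deletion strain by 0.57 ± 0.07 (adjusted p = 2.81e-05). Of the 9 genes 2 were higher and 4 lower there with MMS, beside 32% and 29.8% of all tested genes. Their median was 0.19 beside 0.03. ART5 differed by -0.38 ± 0.09 (adjusted p = 0.00305) and ROG3 by -0.31 ± 0.10 (adjusted p = 0.0178). Library-size scaling took away both of these calls (adjusted p = 0.825 and adjusted p = 0.799).

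**Figure D4:**
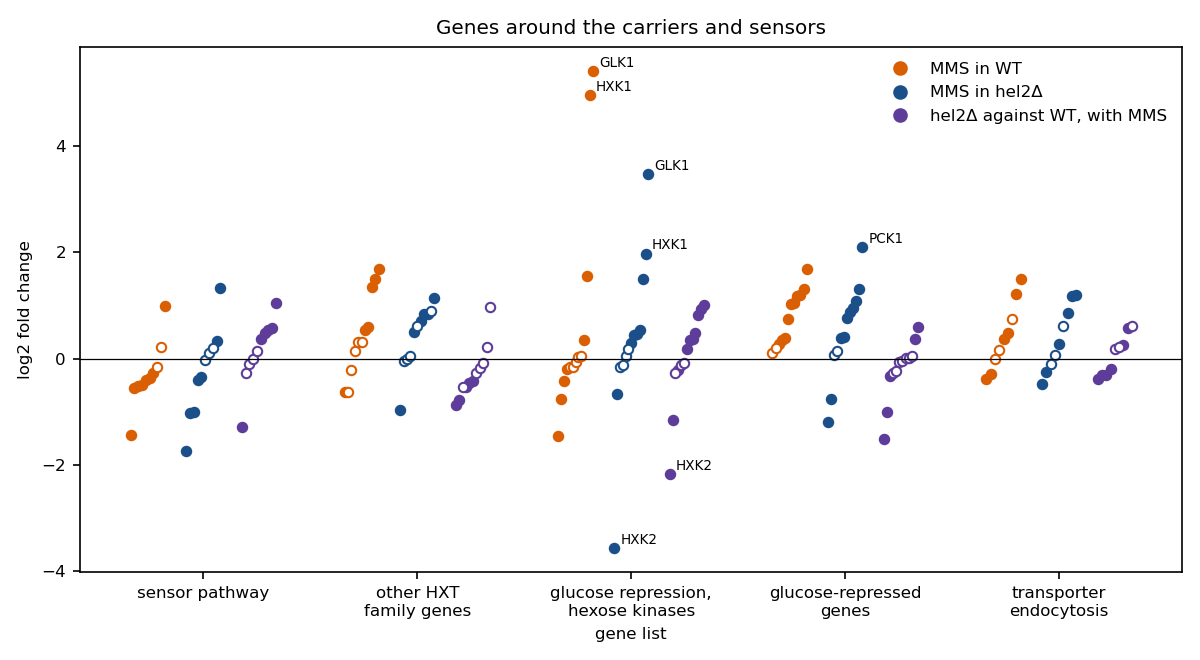
Each point is 1 gene of 5 lists around the carriers, placed by its log2 fold change for MMS in the wild type, MMS in the deletion strain, and the deletion against the wild type with MMS; filled points passed at an adjusted p under 0.05. GLK1 at 5.41 and HXK1 at 4.97 stand highest, and HXK2 at -3.56 in the deletion strain stands lowest.

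For each of the 9 genes the transcripts with the most similar profile were found among 4069 named genes whose log2 CPM averaged 4 or more. Likeness was the root mean square (RMS) difference of log2 CPM over the 12 libraries, after centring each gene on its own mean. HXT5 was most like TKL2, a transketolase gene, with an RMS difference of 0.21 where HXT5 itself ranged over 5.00. TKL2 rose by 1.83 in the wild type and 4.60 in the deletion strain. STR3, a sulfur metabolism gene, at 0.29 and SNO1, a vitamin B6 gene, at 0.34 came next.

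HXT7, which ranged over 4.96, was nearest to AAD6 at an RMS difference of 0.41, then HUG1, an inhibitor of ribonucleotide reductase, at 0.47 and OYE3, an NADPH oxidoreductase gene, at 0.48. HXT6 was most like RNR2, for a small subunit of ribonucleotide reductase, at 0.31, the cell wall gene CWP1 at 0.35 and TDH1, for a glyceraldehyde-3-phosphate dehydrogenase, at 0.35. HXT6 and HXT7 differed from each other by 0.50.

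HXT2 was most like the acid phosphatase gene PHO3 at 0.16, the ribosomal protein gene RPS12 at 0.19 and SAM1, for an S-adenosylmethionine synthetase, at 0.19. HXT4 was nearest to VRG4, for a nucleotide sugar transporter of the Golgi, at 0.15, PMT4, a protein mannosyltransferase gene, at 0.19 and FAA4 at 0.21. HXT3 was nearest to the amino acid permease gene TAT1 at 0.07, then VBA4 and NSG1, both at 0.10.

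HXT1, RGT2 and SNF3 ranged over 0.56, 0.38 and 0.41 in log2 CPM. RSP5, the ligase named above, was nearest to HXT1 at 0.07, followed by MID2 and LST4, each at 0.07. For RGT2 the nearest were COX19 at 0.07, PDR12 at 0.09 and MTM1 at 0.09, and for SNF3 GSR1 at 0.06, GBP2 at 0.07 and BUD17 at 0.07. All libraries share the contrast of treated and untreated cells, so likeness describes shared group levels and nothing more.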

How the data were processed

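The authors deposited 1 table of whole-number read counts per gene for 12 libraries of poly(A) RNA. The submitters' processing notes list STAR 2.5.1a, Subread, featureCounts 1.4.6-p5 and Salmon but no order of use. Build, strand setting and the handling of multi-mapped reads were not found in the labels or the file, so counts of near-identical, overlapping or antisense genes are uncertain. The table had 7230 lines, and 97 identifiers with repeated, equal lines were kept once each. Replicates differed beyond counting noise (lowest chi-square per degree of freedom 63.6). Intervals cover 95%.

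All 12 libraries entered 1 edgeR 4.0.16 fit (R 4.3.3, TMM, filterByExpr, robust quasi-likelihood, no block), with Benjamini-Hochberg adjustment over 6463 genes. The SE is the size of the log2 change divided by the square root of F. Levels per kilobase used coding lengths from RefSeq R64, where 96.3% of coding genes have a length that is a multiple of 3. Alternatives were RLE or library-size scaling, no filter on low counts, a cutoff at a mean log2 CPM of 4, DESeq2 1.42.0, limma-voom (limma 3.58.1), a replicate block, only the libraries compared, HXT6 and HXT7 added, and each library left out. For shares they were coding length, HXT5 left out and HXT4 counted as low-affinity. The fit was tested on simulated data.

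The genes and lists were chosen with earlier results of these data known. Genes outside the 9 were named by rule, as up to 3 called members per list and comparison with the largest change and the 3 most alike per gene. Of the listed genes, only those so named were recomputed under the alternatives. HEL2 and LEU2 were checks of the strains, and URA3 was added after its counts were seen. Values of a named gene in further comparisons were chosen after they were seen.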

Additional observations from a re-analysis of the deposited data

Results flagged for a closer look

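The difference between the MMS effects (deletion strain minus wild type, log2) passed for 5 of the 9 genes, 1 with a larger rise in the deletion strain and 4 with a more negative value. Of all tested genes 40% passed (18.6% higher and 21.5% lower). The difference was 2.47 ± 0.27 for HXT5 (adjusted p = 2.54e-05), -2.30 ± 0.39 for HXT7 (adjusted p = 0.00111) and -1.98 ± 0.31 for HXT6 (adjusted p = 0.000355). For HXT4 it was -1.22 ± 0.19 (adjusted p = 0.00035), and for HXT2 it was -1.02 ± 0.21 (adjusted p = 0.00226). HXT6 and HXT7 summed differed by -2.23 ± 0.36 (adjusted p = 0.000777). All 6 values passed under every alternative tried.

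The hexose kinase genes also differed, HXK1 by -2.99, HXK2 by -2.10 and GLK1 by -1.94. Among the corepressor, repressor and kinase genes the values were -1.17 for TUP1, -0.50 for CYC8, 0.60 for MIG1, -0.24 for MIG2 and 0.51 for YCK2. Glucose-repressed genes differed by -1.54 (ADH2), -0.86 (SUC2) and -0.65 (ADR1), the other HXT family genes by -0.65 (HXT11) and -0.33 (GAL2), and the arrestin gene ROD1 by 0.49.

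Some of these calls were lost under alternatives. Library-size scaling took away those of CYC8 (adjusted p = 0.378), HXT11 (adjusted p = 0.131), GAL2 (adjusted p = 0.651) and MIG2 (adjusted p = 0.986). The call of CYC8 was also lost under the cutoff at a mean log2 CPM of 4 (adjusted p = 0.0604), in limma-voom (adjusted p = 0.0504) and with a replicate block (adjusted p = 0.0637). That of MIG2 was lost with no filter (adjusted p = 0.054), under the cutoff at a mean log2 CPM of 4 (adjusted p = 0.11) and with the block (adjusted p = 0.0702). Leaving out WT replicate 2 or 3, hel2 replicate 3 or hel2_MMS replicate 3 took away the call of MIG1 (adjusted p of 0.0524 to 0.0562). With 1 library left out, the call was kept in 5 of 12 fits for CYC8 and in 3 of 12 for MIG2, with an adjusted p of up to 0.0957 and up to 0.115.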

How the results depend on the processing

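For the 24 calls of the 9 genes, 472 recomputed values kept direction and call, and the other 3 (HXT4 without MMS, as given above) kept the direction and lost the call. The summed HXT6 and HXT7 rows kept direction and call in all 99. Under library-size scaling the members called were 8 and 9 in place of 6 and 6 with MMS in the wild type and the deletion strain, and 7 in place of 6 between the treated strains. The medians of all tested genes were then 0.33, 0.61 and 0.37. The share of all tested genes called under this scaling is not given here, so these counts are no result about the members. Members called between untreated strains were 2 in place of 1 under library-size scaling and with only the libraries compared, and 0 to 2 with 1 library left out. The share of all tested genes called with only the libraries compared is not given here either. Genes called between untreated strains were 554, 839 with DESeq2, and 305 to 1163 with 1 library left out. The cause was not tested.

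The low-affinity share was 75.1% per coding length and 78.2% with HXT4 counted as low-affinity in the untreated wild type, 77.7% with HXT4 in the untreated deletion strain, and 90.1% without HXT5 in the treated deletion strain. Other shares moved by less than 1 SD.

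Small changes turned sign. Under library-size scaling RGT2 stood at 0.296, 0.54 and 0.24 and SNF3 at 0.26, 0.45 and 0.18 for MMS in the wild type, in the deletion strain and for their difference. HXT1 stood at 0.47 (MMS in the deletion strain), 0.0816 and 0.15 (deletion without and with MMS) and 0.0708 (difference). SNF3 stood at 0.12, ROG3 at 0.0356 and BUL1 at 0.15 (deletion with MMS), and ART5 at 0.0147 and 0.0815 (MMS in each strain). RGT2 was 0.00378, 0.0546 and 0.0508 at a mean log2 CPM of at least 4 (MMS in each strain, difference), and 0.00364 for the difference in limma-voom. With 1 library left out, RGT2 ran from -0.11 to 0.0901, -0.085 to 0.0428, -0.0118 to 0.16 and -0.11 to 0.0936 (MMS in each strain, deletion with MMS, difference), SNF3 from -0.11 to 0.00921 and HXT1 from -0.0823 to 0.19 (MMS in the wild type), and HXT1 from -0.11 to 0.0525 (deletion without MMS).

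Same-numbered libraries deviated together in 1 of 18 pairs (r over 0.1), and 3 of 12 were most like their own number, so numbers were not taken as pairs. A replicate block left 6, 6, 1, 6 and 5 members called in the 5 comparisons, as in the fit without it. The share of all tested genes called with the block is not given here, so these counts are no result about the members. Fitting only the libraries compared gave no separate value for the difference of MMS effects, which uses all 12.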
